A study of Mus musculus with 7 samples.

Results

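The 7 genes described here, Hmgcs1, Idi1, Fdps, Sqle, Lss, Cyp51 and Dhcr7, encode enzymes of cholesterol synthesis. They were chosen by name, through the transcript accession that each array probe carries, and are 7 of 18026 genes tested. No LDL uptake gene is among them, so they are called the 7 cholesterol synthesis genes. The arrays compared cells labelled as hair follicle dermal sheath from dorsal mouse skin at postnatal day 15, taken from control mice and from cΔex3 mice, the group in which β-catenin was activated. Cells of both groups were sorted as positive for YFP and negative for CD34, ALP and ITGα8, with DAPI-stained dead cells left out. The control group had 3 arrays from 4 mice, with 2 mice pooled on array 3, and the cΔex3 group had 4 arrays from 6 mice, with 2 mice pooled on array 2 and 2 on array 3. The promoter or cell type that drives recombination, the strain and the sex are not given in the sources used here.

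Animal cells build cholesterol from acetyl-CoA. Hmgcs1 makes the HMG-CoA that enters the mevalonate pathway, Idi1 and Fdps turn its products into farnesyl diphosphate, Sqle oxidises squalene, Lss closes the sterol ring, Cyp51 removes a methyl group from the ring and Dhcr7 carries out a late reduction that yields cholesterol. Transcription of these genes is raised by the SREBP factors when membrane sterol is low. When sterol is plentiful, the Insig proteins hold back the SREBP protein together with Scap, its escort. The liver makes much of the body's cholesterol, and skin cells also make it.

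The transcripts on the arrays did not all follow the sort labels. All 13 hepatocyte markers tested were lower on the cΔex3 arrays, with a median log2 difference of -9.40, or -9.14 with the 2 genes that no cΔex3 array measured well above background set at their bounds. Summed over those 13 genes, as multiples of each array's 75th percentile, the level was 2546 to 3565 on the control arrays and 2.63 to 16.9 on the cΔex3 arrays, where 10 of the 13 were still well above background on every array. All 10 adipocyte markers were higher on the cΔex3 arrays, with a median of 6.22 and summed levels of 14.7 to 91.6 on the control and 815 to 1720.2 on the cΔex3 arrays. Of 9 dermal sheath and smooth muscle markers, all above background on every array, 6 were higher and 0 lower in cΔex3, and their summed level was 26.8 to 38.1 against 100.4 to 221. Groups are therefore named by their labels throughout. The transcript of Ctnnb1, which encodes β-catenin, lay between 3.39 and 3.49 on all 7 arrays, and the exon its probe reads is not known here. Axin2, a target of β-catenin signalling, was higher in cΔex3 by 1.13 without overlap between groups (limma adjusted p of 0.00752). In bulk samples, fewer cells of a type and less RNA per cell cannot be told apart.

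Arrays differed in brightness, with a 75th percentile of processed signals between 751.8 and 908.2 in control and between 1349 and 2158 in cΔex3. Levels below are log2 of the processed signal minus that percentile of the same array, and a difference is the mean of the cΔex3 arrays minus the mean of the control arrays. A gene was called when the adjusted p of limma, a linear model fitted to all genes with Benjamini-Hochberg adjustment, was under 0.05. All 7 genes were well above background on all 7 arrays, and 0 of their spots were saturated. The median difference of all genes tested was -0.09. The number of arrays limits the precision of each value.

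Promoter sequence shows the letters that SREBP and its partner factors are known to read. RefSeq windows, from 250 bases before to 50 after a transcript start on GRCm38.p6, were found for 5 of the 7 genes, with 7 windows in all. Fdps and Sqle had none. Dhcr7 had more than 1 window, some of them overlapping, so the windows do not each stand for a separate gene. The windows of Hmgcs1, Idi1 and Cyp51 are shown because they stand for the gene that did not pass the test, the gene with the largest fall and a gene of the sterol stage. Each is written on the gene's strand, with the sterol regulatory element core TCACNCCA and the NF-Y motif CCAAT in capitals, read on either strand, so that a match on the other strand appears as ATTGG.
Hmgcs1, chr13:119690101-119690400, plus strand: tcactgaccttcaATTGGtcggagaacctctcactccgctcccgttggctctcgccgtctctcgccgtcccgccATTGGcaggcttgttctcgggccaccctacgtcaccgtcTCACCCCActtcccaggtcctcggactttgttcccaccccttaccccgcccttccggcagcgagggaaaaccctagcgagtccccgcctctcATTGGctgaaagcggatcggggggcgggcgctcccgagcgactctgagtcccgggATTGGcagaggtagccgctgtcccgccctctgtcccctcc
Idi1, chr13:8885356-8885655, plus strand: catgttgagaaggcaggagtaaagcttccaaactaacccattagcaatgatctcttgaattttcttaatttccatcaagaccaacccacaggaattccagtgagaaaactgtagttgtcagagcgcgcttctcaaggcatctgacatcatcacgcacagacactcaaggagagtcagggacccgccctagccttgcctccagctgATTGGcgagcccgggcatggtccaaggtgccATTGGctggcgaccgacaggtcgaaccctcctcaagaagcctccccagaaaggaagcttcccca
Cyp51, chr5:4104648-4104947, minus strand: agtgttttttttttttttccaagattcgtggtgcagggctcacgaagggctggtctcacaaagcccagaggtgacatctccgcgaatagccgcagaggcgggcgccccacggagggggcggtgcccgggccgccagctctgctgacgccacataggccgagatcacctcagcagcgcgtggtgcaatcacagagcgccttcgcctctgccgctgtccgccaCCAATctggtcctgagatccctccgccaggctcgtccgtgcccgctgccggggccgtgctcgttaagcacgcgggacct
TCACNCCA was found in 4.36% of 32851 windows of the same length, and among the 7 windows only in that of Hmgcs1, where it begins 137 bases before the start and overlaps no NF-Y match. The NF-Y motif was found in 37.4% of all windows and in 5 of the 7. Each of the 5 genes had at least 1 window with it, and Dhcr7 had it in only 1 of its windows. GGGCGG, the Sp1 motif, was found in 35.7% of all windows and in 6 of the 7. A match is a description of letters and not of a bound site. Only exact matches were searched, so a window without a match can still hold a site with other letters.

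Of the 7 genes, 6 fell in cΔex3 (limma, adjusted p under 0.05), 0 rose and Hmgcs1 did not pass the test. Over all genes tested, 53% were called, 29.2% lower and 23.8% higher, so that 55.1% of calls were lower, against 13.7% with no scaling between arrays, which adds the same amount to every gene. The median difference of the 7 genes was -3.09, with a range of -4.01 to -1.35. For 6 of them every cΔex3 array was below every control array, which held for 32.7% of all genes. A difference of at least 2 log2 units downward was seen in 5 of the 7 and in 9.31% of all genes.

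**Figure D1:**
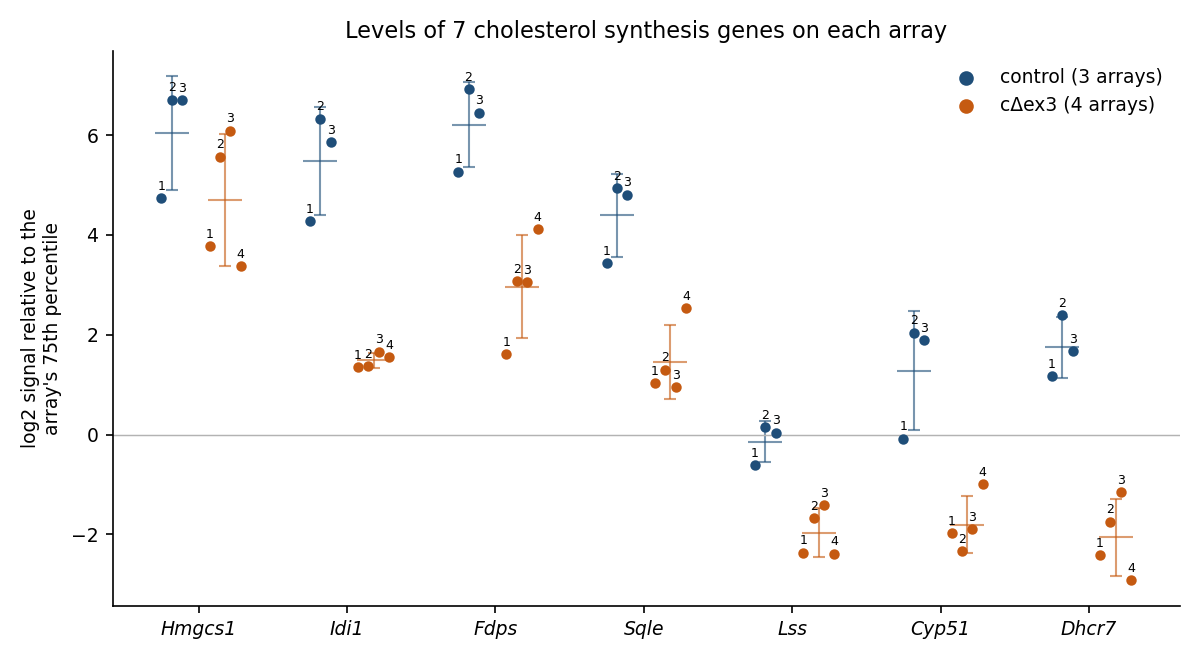
Log2 level relative to the array's 75th percentile (vertical axis) of the 7 cholesterol synthesis genes (horizontal axis) on 3 control and 4 cΔex3 arrays; points are arrays with their replicate numbers, and bars show the mean and SD. The groups overlap for Hmgcs1 and for no other gene of the 7.

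The mevalonate stage gave the most and the least separated genes. Hmgcs1, the synthase that makes HMG-CoA, was at 4.73, 6.71 and 6.70 on control arrays 1 to 3 and at 3.78, 5.57, 6.09 and 3.37 on cΔex3 arrays 1 to 4. Its groups overlapped, since cΔex3 arrays 2 and 3 lay above control array 1. The mean was 6.05 ± 1.14 (SD, n = 3) in control and 4.70 ± 1.33 (SD, n = 4) in cΔex3, a difference of -1.35 ± 0.82 (SE) with a limma adjusted p of 0.205 and a 95% interval of -3.29 to 0.60. A second, dim Hmgcs1 probe, above background on 6 of the 7 arrays and not on control array 1, was lowest on control array 1 among the controls as well and differed by -0.45.

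Idi1, the isomerase that readies the isoprene unit, was at 4.27, 6.33 and 5.87 in control and at 1.35, 1.37, 1.66 and 1.56 in cΔex3. The cΔex3 arrays lay within 0.31 of each other while the controls spanned 2.06. The difference was -4.01 ± 0.47 (SE), or 16.1-fold lower, with a limma adjusted p of 0.000531. Without control array 1 it was -4.62, or 24.5-fold lower. Before scaling, the processed signals of Idi1 were 14517, 60903 and 52980 in control against 4722, 3497, 5252 and 6344 in cΔex3, without overlap. Before scaling, Idi1 and Dhcr7 were the 2 genes of the 7 whose groups did not overlap, and the other 5, of which 4 were called, did overlap.

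Fdps, which makes farnesyl diphosphate for sterols and for protein prenylation, was at 5.27, 6.92 and 6.46 in control and at 1.60, 3.07, 3.06 and 4.11 in cΔex3. The groups did not overlap, and the highest cΔex3 array was 1.15 below the lowest control. The difference was -3.25 ± 0.64 (SE), or 9.54-fold lower, with a limma adjusted p of 0.00486.

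The sterol stage fell as well. Sqle, the squalene epoxidase and a rate-limiting step of the later pathway, was at 3.43, 4.94 and 4.81 in control and at 1.03, 1.30, 0.94 and 2.54 in cΔex3. Array 4 stood above the other cΔex3 arrays and still below every control. The difference was -2.94 ± 0.52 (SE), or 7.67-fold lower, with a limma adjusted p of 0.00321.

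Lss, lanosterol synthase, was at -0.61, 0.14 and 0.03 in control and at -2.37, -1.68, -1.42 and -2.39 in cΔex3. It had the smallest difference of the 6 called genes, -1.82 ± 0.33 (SE), or 3.53-fold lower, with a limma adjusted p of 0.00331. The groups were 0.81 apart at their nearest arrays.

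Cyp51, the lanosterol demethylase, was at -0.08, 2.04 and 1.89 in control and at -1.98, -2.34, -1.90 and -0.999 in cΔex3. Control array 1 lay 0.91 above the highest cΔex3 array and well below the other controls. The difference was -3.09 ± 0.58 (SE), or 8.50-fold lower, with a limma adjusted p of 0.00403. Without control array 1 it was -3.77, or 13.6-fold lower.

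Dhcr7, a late reductase of the pathway, was at 1.17, 2.40 and 1.67 in control and at -2.42, -1.75, -1.15 and -2.93 in cΔex3. No array of one group reached the other, with 2.32 between the nearest. The difference was -3.81 ± 0.48 (SE), or 14.0-fold lower, with a limma adjusted p of 0.000751.

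The fall lay beside the difference in hepatocyte markers in the same arrays, whose part in it was not tested. The slide rows were also uneven, with 2 control and 1 cΔex3 array in the upper row and 1 control and 3 cΔex3 arrays in the lower. Within the upper row the differences of the 7 genes ran from -4.49 to -1.95 and within the lower row from -4.34 to -1.69, with 3 and 1 of the 7 called by limma. Each row has 1 array in one of the groups, whose own spread is then unknown, so these values do not separate row from group.

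**Figure D2:**
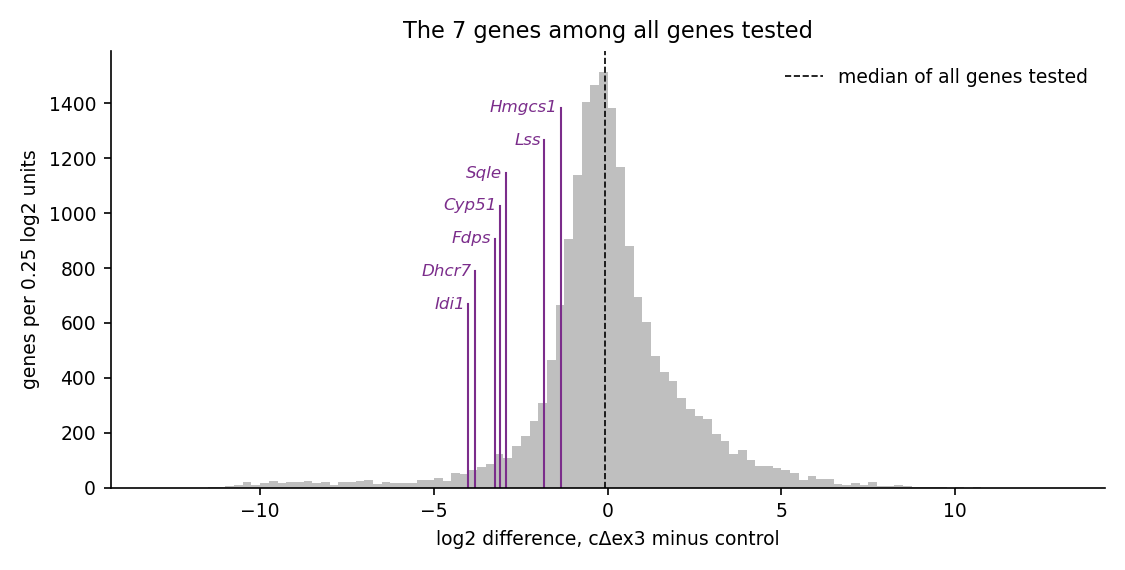
Number of genes per 0.25 log2 units (vertical axis) by difference, cΔex3 minus control (horizontal axis), for the 18026 genes tested; purple lines mark the 7 genes and the dashed line the median of all genes. The 7 genes lie between -4.01 and -1.35, below the median of -0.09.

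The 7 genes also varied more within the control group than most genes. Their SD over the 3 control arrays was 0.41 to 1.19, with a median of 0.85, against a median of 0.229 over all genes tested. All 7 were lowest on control array 1, which was the lowest control for 22.6% of all genes, and all 7 were highest on control array 2. The level on control array 1 minus the mean of the other controls had a median of -1.45, from -2.05 for Cyp51 to -0.70 for Lss. The same median over all genes was 0.04.

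For 5 of the 7 genes, control array 1 lay at least 1 log2 unit below both other controls, a threshold chosen after seeing the values, as it did for 0.632% of all genes. The other enzymes of the pathway shared this in part, with 11 of 14 lowest on control array 1 and 2 of 14, Mvk and Msmo1, at least 1 below. None of 8 fatty acid synthesis genes, 13 hepatocyte markers or 11 genes of SREBP control was at least 1 below on that array, while 1 of 10 adipocyte and 1 of 4 epididymis markers were. The median of control array 1 minus the other controls was -0.65 for fibroblast and -0.58 for adipocyte markers, near the -0.64 and -0.58 of the other enzymes of the mevalonate and sterol stages. Fatty acid synthesis genes had another low array: 7 of 8 were lowest on control array 3, the array of 2 pooled mice, and 0 of the 7 cholesterol genes were. Without control array 1, the same 6 genes of the 7 were called lower by limma.

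**Figure D3:**
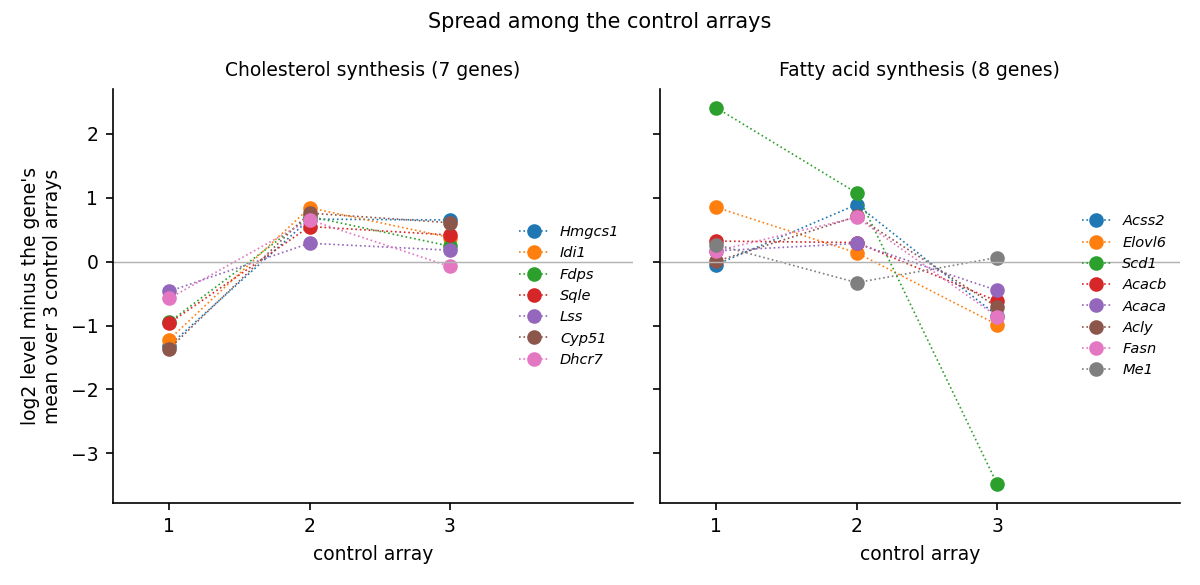
Log2 level minus the gene's mean over the 3 control arrays (vertical axis) on each control array (horizontal axis), for the 7 cholesterol synthesis genes (left) and 8 fatty acid synthesis genes (right); dotted lines only join the points of a gene. The cholesterol genes are low on array 1, and 7 of 8 fatty acid genes are lowest on array 3.

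Among the cΔex3 arrays the 7 genes did not move as one. Their SD was 0.15 for Idi1 to 1.33 for Hmgcs1, with a median of 0.74, against 0.397 over all genes. Array 4 held the highest level of 3 genes, Fdps, Sqle and Cyp51, and the lowest of 3 others, Hmgcs1, Lss and Dhcr7. Array 3 held the highest level of the remaining 4 genes, Hmgcs1, Idi1, Lss and Dhcr7.

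Each gene was also set against the mean of the other 6 on the same array, which shows whether the 7 kept their proportions. Hmgcs1 was 1.80 higher in cΔex3 by this measure, with overlap between groups. Lss was 1.25 higher and Idi1 differed by -1.30, both without overlap. Dhcr7 differed by -1.07, and Fdps, Cyp51 and Sqle by -0.42, -0.22 and -0.05, with overlap. These are descriptions with no test.

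**Figure D4:**
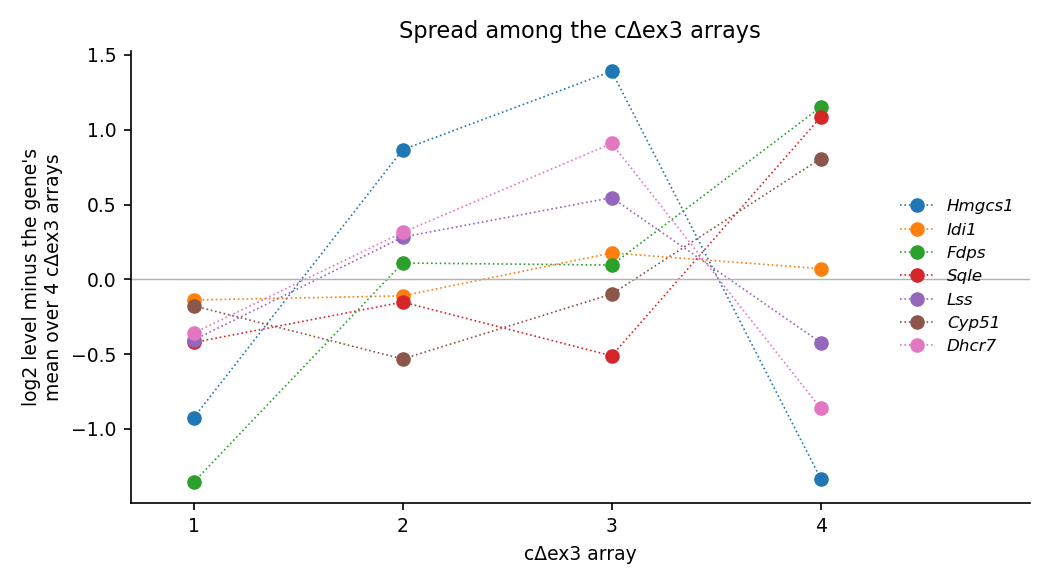
Log2 level minus the gene's mean over the 4 cΔex3 arrays (vertical axis) on each cΔex3 array (horizontal axis) for the 7 genes; dotted lines only join the points of a gene. On array 4, Fdps, Sqle and Cyp51 are highest and Hmgcs1, Lss and Dhcr7 are lowest, and Idi1 spans 0.31.

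The rest of the pathway was lower in most of its steps. Of 21 enzymes tested, the 7 included, 16 fell, 1 rose and 4 did not pass limma's test, with a median of -3.00. Among the other 14, 10 fell, 1 rose and 3 did not pass, with a median of -2.87. Acat2, the cytosolic thiolase that feeds the pathway, differed by -4.71, Ebp, a sterol isomerase, by -3.07, Hsd17b7, a sterol reductase, by -3.51, and Msmo1, a sterol demethylase, by -3.29, all called lower.

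In the mevalonate stage Mvd and Fdft1, the decarboxylase and squalene synthase, differed by -1.73 and -1.70, both called, while the kinases Pmvk and Mvk differed by -0.84 and -0.62 without passing the test. Tm7sf2 and Lbr are both sterol reductases that can act at the same step. Tm7sf2 fell by 4.55 and Lbr, which is also a protein of the nuclear envelope, rose by 0.60 with a limma adjusted p of 0.0419, a call lost in 6 of the 7 fits that left out 1 array, all but that without cΔex3 array 4 (limma adjusted p of 0.0301 to 0.153 over the 7). Nsdhl, a sterol dehydrogenase, differed by -1.29 and, of the fits that left out 1 array, passed in those without control array 1 (-1.74) and without cΔex3 array 4 (-1.50).

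**Figure D5:**
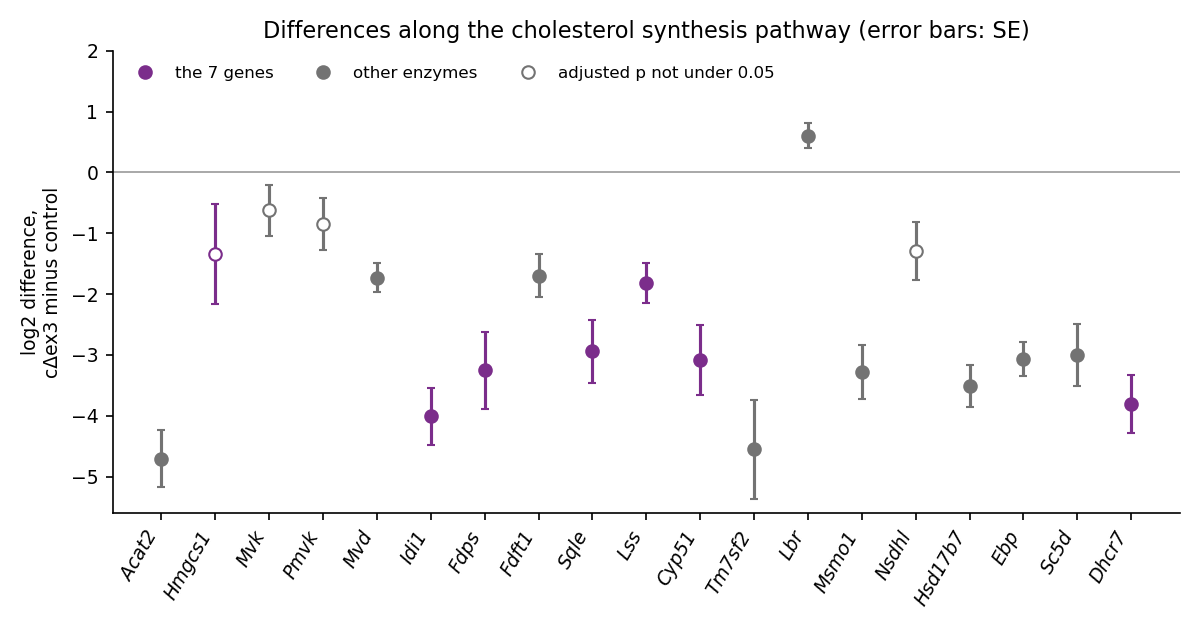
Log2 difference, cΔex3 minus control, with SE (vertical axis) for 19 cholesterol synthesis enzymes in pathway order (horizontal axis); purple marks the 7 genes, and open circles did not pass the adjusted p of 0.05. Most points lie below 0, from -4.71 for Acat2 to 0.60 for Lbr.

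Enzymes that resemble others of the pathway but have other roles were also lower. Idi2, a relative of Idi1, and Acat1, the mitochondrial thiolase, differed by -0.66 and -1.79, both called, though Idi2 was not called without any 1 of the control arrays (limma adjusted p of 0.0517 to 0.0580).

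The regulators of SREBP were lower or not called. Of 11 tested, 6 fell, 0 rose and 5 did not pass, with a median of -0.88. Among those that fell, Insig2 and Scap differed by -2.07 and -1.82, and Erlin1 by -1.39. The SREBP genes did not pass limma's test, with a difference of 1.08 for Srebf2 (adjusted p of 0.0556) and -0.41 for Srebf1 (adjusted p of 0.489). The Srebf2 probes disagree, since a second probe above background on all 7 arrays differed by -0.49. Without cΔex3 array 4, the first of them was called higher by limma, with a difference of 1.39 and an adjusted p of 0.00578.

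Genes of LDL uptake and lysosomal cholesterol transport went both ways. Of 15 tested, 7 fell, 5 rose and 3 did not pass, with a median of -0.65. Stard4, which moves cholesterol between membranes, differed by -3.51 and Npc1, which exports it from lysosomes, by -2.05, both called. Vldlr, a receptor for lipoprotein particles, rose by 3.99, and its other probe rose by 4.01. Sort1, a sorting receptor, rose by 4.29 on its brightest probe, by 1.80 on another and differed by -0.67 on the third, so its probes disagree.

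Of 13 genes of sterol esters, efflux and oxysterols, 7 fell, 1 rose and 5 did not pass, with a median of -1.73. The largest falls were in genes known for high expression in liver, a link that was not tested. Cyp7b1, an oxysterol hydroxylase, differed by -7.29, the sterol exporter Abcg5 by -7.12 and Soat2, an esterifying enzyme, by -5.52. Abcg8, the partner of Abcg5, was not well above background on any cΔex3 array and was at least 60.3-fold lower there.

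Among genes that use the same precursors some were called and others not, where 53% of all genes tested were called. Of 11 genes of the isoprenoid branch, 2 rose, Ggps1 by 1.30 and Fntb by 1.43, 3 fell, among them Pdss2 with -1.16 and Rabggta with -0.83, and 6 did not pass, with a median of -0.31. Rabggta was not called without control array 2, control array 3 or cΔex3 array 1 (limma adjusted p of 0.0517 to 0.0779). Of 8 fatty acid synthesis genes, 2 fell, 0 rose and 6 did not pass, with a median of 0.12. Acss2, which makes acetyl-CoA, fell by 2.46. Elovl6 fell by 2.29 with a limma adjusted p of 0.0428, but it was not called without control array 1 or 2 or without cΔex3 array 1, 2 or 3 (limma adjusted p of 0.0811 to 0.140). Scd1, a desaturase that also rises with SREBP, had a difference of 1.73 with control levels of 7.68, 6.34 and 1.79, and was not called.

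The genes whose profiles over the 7 arrays lay nearest to the mean profile of the 7 were Msmo1, Rdh9, R74862, Hsd17b7 and Cphx1. The measure was the root mean squared difference of levels, each centred on its own mean over 7 arrays, and it was 0.286, 0.287, 0.321, 0.364 and 0.380. All 5 fell, with differences of -3.51 to -2.60. The mean profile of the 7 is itself lower in cΔex3, so a fall was set by the way these genes were picked. Msmo1 and Hsd17b7 are enzymes of the same pathway. Another probe of R74862 differed by 1.59, so its probes disagree in direction.

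Marker lists of other cell types gave further values. Whether such cells could pass the sort is not known here. Of 8 macrophage markers, a list that includes Kupffer cells of the liver, 4 fell, 1 rose and 3 did not pass. Their summed levels were 171.1 to 282.9 in control and 41.4 to 103.6 in cΔex3. The 4 that fell were Clec4f, Cd5l, Vsig4 and Marco, with differences of -10.88, -5.61, -4.92 and -3.72. The 3 that did not pass differed by -0.24 to 0.80, so the fall was not shared by all macrophage markers. Of 6 sebocyte markers tested, sebocytes being skin cells that make much lipid, 3 fell and 0 rose, with summed levels of 5.30 to 18.2 against 1.90 to 19.31. The 3 were Elovl3, Awat2 and Mc5r, with differences of -8.69, -1.68 and -0.75. Elovl3 was above background on 3 of the 4 cΔex3 arrays. In the 7 fits that left out 1 array, Elovl3 and Awat2 were called in all 7 and Mc5r in 3. The other probe of Mc5r differed by 5.95, so its probes disagree. Krt79 differed by 2.56 without passing the test. Of 10 steroidogenic markers, 9 were on the array and only 6 were above background on enough arrays to be tested. Of those 6, 4 fell and 2 did not pass, with summed levels of 44.3 to 55.6 against 10.3 to 19.6. Most of that sum came from Cyp17a1, with a mean level of 5.38 in control and 3.78 in cΔex3. These values do not show that steroid-producing cells were present. All 7 fibroblast markers rose, with a median of 3.46. The part of these cells in the fall of the 7 genes was not tested.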

How the data were processed

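RNA of sorted cells was measured on 7 one-colour (Cy3) Agilent mouse arrays. The deposited scanner files hold a spot intensity, the processed signal, that Agilent Feature Extraction 10.7.1.1 had background-corrected before deposit, per the file headers. The deposited series table holds log2 values of the same arrays, whose normalization is not given in the sources used here; they correlated at an r of 0.9999 with values rebuilt by normexp background correction and quantile normalization, and served as an alternative. Control and outlier spots were left out, spots of a probe were averaged, and log2 signals were scaled to each array's 75th percentile over spots. Of 55681 probes, 28020 were named through RefSeq accessions. Each gene was tested on its brightest probe among those marked above background on 3 or more of the 7 arrays, with limma 3.58.1 in R 4.3.3 (lmFit, eBayes, two-sided) and Benjamini-Hochberg adjustment over 18026 genes. The script was tested on simulated data. A level set at a bound used the lowest signal well above background on each array.

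The members and gene lists were chosen with earlier results of these data known. The text names every member, up to 4 genes of each other list with the smallest p and the 5 nearest profiles, except some that are not reported here; Mvk, Tm7sf2, Lbr, Sc5d, Nsdhl, Srebf1, Srebf2, Ctnnb1 and Axin2 were added after their values were seen. Normexp was run on the median signal, since the files have no mean signal column. All 7 arrays came from 1 scan of 1 slide. File names and headers gave different slide numbers on 7 arrays and different positions on 4; rows here follow the headers. Alternatives covered scaling, background correction, filters, probe choice, array weights, slide row, a replicate block and leaving out each array. Over all genes, same-numbered arrays of the 2 groups did not deviate together (correlations of -0.009, -0.0009 and 0.018). The labels do not say whether the numbers pair the arrays. These values cannot decide it for the 7 genes, since they are taken over all genes.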

Additional observations from a re-analysis of the deposited data

Results flagged for a closer look

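Among the 4 cΔex3 arrays, 5 of 94 genes had 1 array standing apart, about the 1 group in 20 that chance alone marks, and in all 5 it was array 4. Acat2 was at 1.78 there against 0.01 to 0.09 on the other cΔex3 arrays. Fdft1 was at 1.60 against 0.71 to 0.78. Scap was at 3.98 against 3.10 to 3.18. Npc1 was at -1.33 against -0.84 to -0.78. Emcn, a marker of endothelium, was at -0.97 against 0.08 to 0.19. None of the 7 cholesterol synthesis genes met this rule in cΔex3, and the rule was not applied to the 3 control arrays. The summed level of 4 epididymis markers was 421 on array 4 against 1.59 to 101.1 on the other cΔex3 arrays, and limma's array weights gave array 4 the lowest weight, 0.239 against 0.891 to 2.80. Their part in these values was not tested.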

How the results depend on the processing

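The 6 called genes stayed called, and all 7 stayed lower, in each fit that left out 1 array. All genes called then ran from 7298 to 10490, and the pathway lists' calls, 47 here, from 39 to 54. With the arrays of 1 mouse only, 3 of the 7 were called, with Cyp51 at -2.47, Fdps at -3.24 and Sqle at -2.40 not called. Within the lower slide row, which has 1 control array, 1 of the 7, 1255 of all genes and 10 list genes were called, and Cyp51 at -3.64, Dhcr7 at -3.61, Fdps at -3.04, Lss at -1.86 and Sqle at -3.21 were not. Within the upper row 3 were called, and Cyp51 at -2.96, Idi1 at -3.96 and Sqle at -3.15 were not. Slide rows, and a 75th percentile taken over probes in place of spots, were chosen as alternatives after seeing the data; the latter left the same 6 genes called and 9505 of all genes. With the replicate block, on arrays 1 to 3 of each group, Hmgcs1 was called at -0.90 (limma adjusted p of 0.0229). Its limma adjusted p ran from 0.0229 to 0.793 over its alternatives. In the replicate block fit 9448 of all genes were called, and no other member's call changed. Whether the numbers pair the arrays is not known here. With no scaling, Lss was not called at -0.71, the median of all genes was 1.02 and 13.7% of calls were lower, against 55.1% here and 63.1% with normexp. The second brightest probe, which 4750 genes have, gave 2241 calls and 16 list calls.

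Directions turned for Aurkb with normexp (-0.60), and for Ctnnb1 with the deposited series values (0.52). No scaling adds the same amount to every gene, which by construction turns small falls: Ctnnb1 (1.08), Idi2 (0.45), Rabggta (0.28) and Mc5r (0.36). Directions also turned with the second brightest probe for Kdr (0.62), Krt10 (1.23), R74862 (1.59) and Sort1 (-0.67). Mc5r turned with the mean of probes (2.60), normexp (3.10), the second probe (5.95), the series values (3.64) and the lower row (5.73). Srebf2, called with neither probe, was at -0.49 with the second. Other genes not called in the main fit changed sign too, so the turns given are not all. Among them, the highest differences over the alternatives were 0.49 for Mvk, 0.27 for Pmvk and 0.70 for Srebf1. The lowest for Scd1 was -0.75. Apart from the scaling shift, the causes were not tested. The number of arrays and the uneven rows limit what the fits resolve.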
